A study of Drosophila melanogaster with 6 samples.

Results

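The mitochondrial ribosomal protein genes of *Drosophila melanogaster* were taken as every gene in the count tables whose symbol is mRpL or mRpS followed by a digit. They numbered 71 of the 17489 genes in the tables, 47 with large subunit symbols (mRpL) and 24 with small subunit symbols (mRpS). The same rule held for 73 symbols in the symbol table, and the remaining 2, *mRpS5* and *mRpS34*, were not analysed here. Of the 71 genes, 70 had at least 1 count and all 70 were tested.

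The genes were followed in 6 RNA-seq libraries of flies labelled male, 3 from a sugar diet with 30% sucrose (Pcl_SD) and 3 from a control diet with 5% sucrose (Pcl_CD), each diet given for 7 days from day 5 to day 12 of adult life. Both groups had the genotype Gr5a:Pclc429>UAS-Rpl3-3XFLAG, so the flies on either diet carried the same allele of *Pcl* (*Polycomblike*, an accessory subunit of Polycomb Repressive Complex 2) and the same FLAG-tagged RpL3, a protein of the cytosolic ribosome driven in the *Gr5a* sweet taste neurons. Each library came from a pool of 300 heads. The labels name the cells as *Gr5a* neurons but do not state for each library whether RNA bound to tagged ribosomes or RNA of the whole lysate was sequenced.

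The mitochondrial ribosome translates the few messenger RNAs encoded by the mitochondrial genome, all of them for subunits of the respiratory chain and ATP synthase in animals. Its ribosomal RNAs are made inside the organelle, whereas all its proteins are encoded in the nucleus, translated on cytosolic ribosomes and imported. Some of these proteins have counterparts in bacterial ribosomes, and others were gained in the mitochondrial lineage. The genes are scattered over the genome, here 12 on 2L, 12 on 2R, 15 on 3L, 21 on 3R and 11 on X.

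Total sense counts were 16691685 to 19136781 in sugar diet libraries and 12617127 to 24076315 in control diet libraries. The labelled cell type was checked against its markers, and the sweet taste receptor genes *Gr5a*, *Gr64f*, *Gr64a* and *Gr61a* together had only 7.44 to 41.6 normalized counts on the sugar diet and 18.0 to 43.3 on the control diet, while 4 photoreceptor genes together had 403733 to 521877 on the sugar diet and 514093 to 616977 on the control diet. The libraries thus held photoreceptor RNA far above that of the sweet receptor genes. Markers of other tissues differed between libraries, and the summed markers of testis and accessory gland separated every sugar library from every control library. Summed testis markers (5 in the tables, 4 called higher) were 1656, 2713 and 4972 on the sugar diet, highest in replicate 3, and 44.5, 22.7 and 56.1 on the control diet, and all 5 accessory gland markers were called higher, with *Acp26Aa* at 0 in every control library. The yolk protein genes *Yp1*, *Yp2* and *Yp3*, which are made chiefly by females, went against the male label in control replicate 2, and to a smaller extent in control replicate 3: *Yp1* had 44.6, 30.0 and 19.4 normalized counts on the sugar diet, against 117, 21747 and 2363 on the control diet. Of the other fat body markers, *to* had 167 to 197 normalized counts on the sugar diet. On the control diet *to* had 151, 142 and 242, lowest in replicate 2 and highest in replicate 3. *fit* had 20.5, 3.75 and 3.87 on the sugar diet, against 17.2, 34.8 and 25.6 on the control diet. The control libraries thus had the same order for *fit* as for *Yp1*, but *fit* had few counts and was not called (DESeq2 q = 0.324). The counts given next were therefore also taken without each library in turn. This cannot remove the testis and accessory gland difference, which every sugar library shared. Diet and this tissue content cannot be told apart in these libraries.

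No mitochondrial ribosomal protein gene was called different between the diets. In the test of the study (DESeq2, two-sided Wald test, Benjamini-Hochberg adjusted p, here q, under 0.1), 0 of 70 genes passed, and 1 of 70, *mRpL33*, had an unadjusted p under 0.05. The share called was 14.5% of all 14254 genes tested. It was 13.8% of the 5360 genes whose mean normalized count lay in the range of these 70 genes, 36.7 to 531. Of the 5360 genes, 737 were called higher and 4 lower on the sugar diet. The part of testis and accessory gland RNA in these calls was not tested. With edgeR's quasi-likelihood test at the same threshold, which called 13.9% of 11471 genes, 1 of the 70 passed, again *mRpL33*. By edgeR 2 of the 70 had an unadjusted p under 0.05. Of the 5360 genes in the same range of counts, 824 had such a p with DESeq2 and 912 with edgeR. Leaving out any single library gave 0 called with DESeq2, with 0 to 2 at an unadjusted p under 0.05. In bulk samples such as these, fewer cells of a type and less RNA per cell cannot be told apart.

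Fold changes were small and lay on both sides of 0. The median log2 fold change (sugar over control) was -0.03 with quartiles of -0.13 and 0.14, and 32 genes were above 0 and 38 below. It was -0.03 for the 46 large subunit genes and -0.01 for the 24 small subunit genes, against 0.03 for all genes in the same range of counts. The lowest value was -0.50 (*mRpL33*) and the highest was 0.45 (*mRpS23*).

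**Figure D1:**
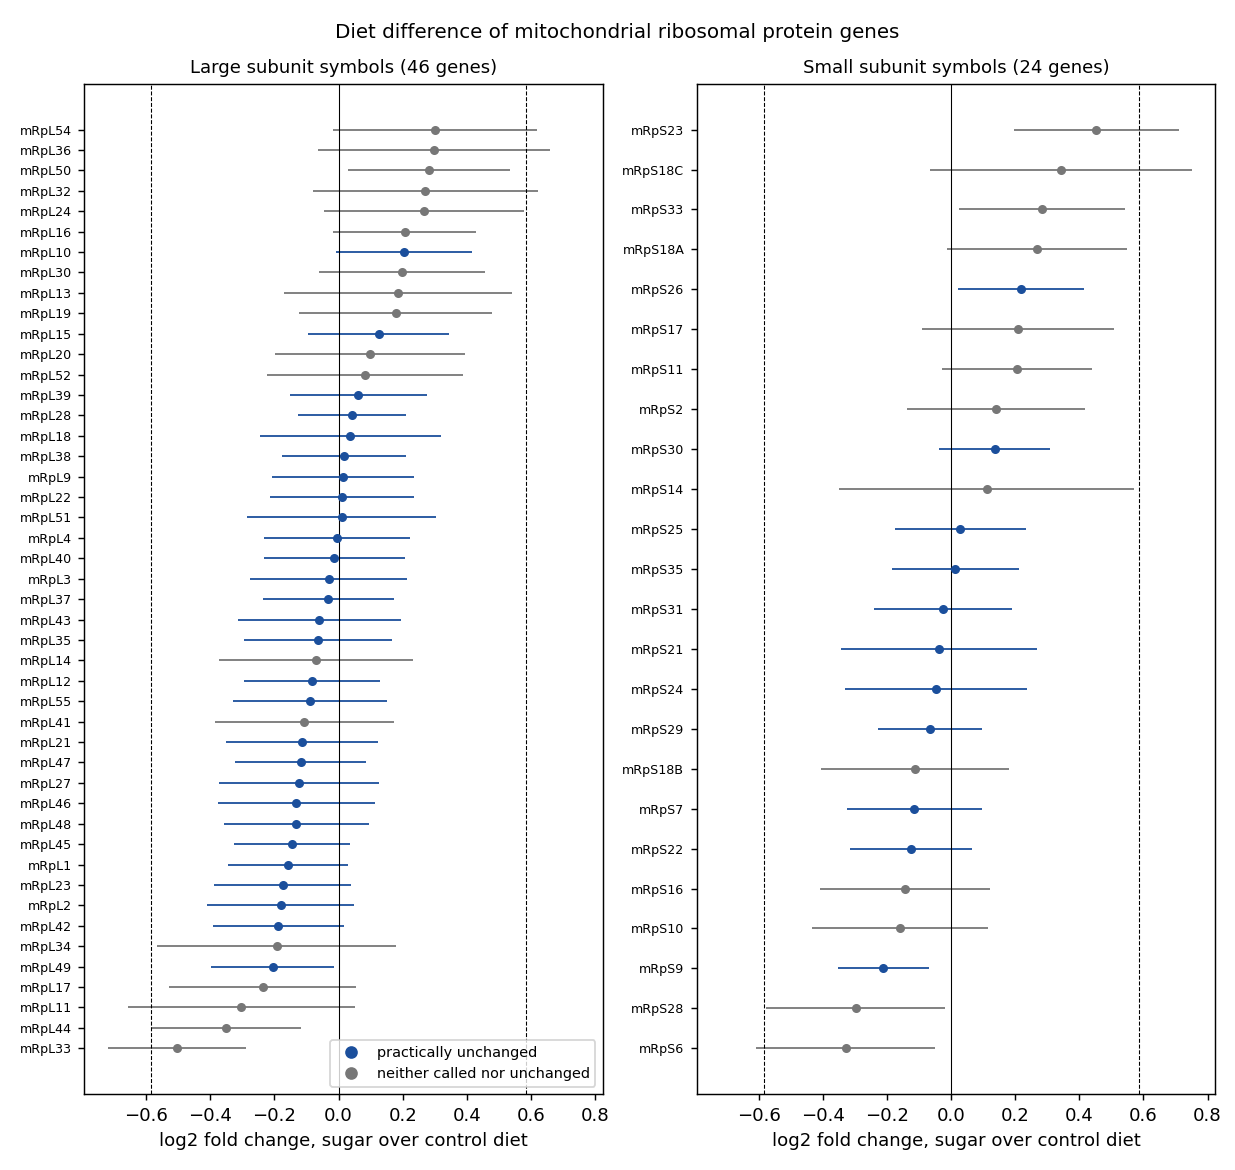
Log2 fold change (sugar over control diet, points) with its standard error (bars) for the 46 large and 24 small subunit genes with counts; dashed lines mark a 1.5-fold change and blue points are genes that passed the test for being practically unchanged. All 70 points lie between the dashed lines, from -0.50 for mRpL33 to 0.45 for mRpS23.

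A missed threshold does not show that a gene was unchanged, so each gene was also tested for practical equivalence, in which small q values speak for a change smaller than 1.5-fold, up or down. By this test 39 of 70 genes were practically unchanged (DESeq2 q under 0.1), 28 of 46 large subunit genes and 11 of 24 small subunit genes. The background was 50.1% of the 5360 genes in the same range of counts and 40.9% of all 16134 genes fitted, so the 39 of 70 lay near the background. The other 31 genes were neither called different nor practically unchanged. The 95% interval of the fold change stayed within 2-fold for 67 of 70 genes and within 1.5-fold for 28, and the outermost bounds were 2.21 for *mRpS18C* and 0.50 for *mRpL11*.

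Standard errors of the fit were above those of counting alone. Counting error by itself would give a standard error of the log2 fold change of 0.10 at the median gene (0.05 to 0.19), against a fitted 0.24 (0.14 to 0.46), which includes a dispersion that DESeq2 moderates with that of other genes. Within a diet the highest library was less than 1.5 times the lowest for 64 genes on the sugar diet and for 56 on the control diet, with median ratios of 1.23 on the sugar diet and 1.27 on the control diet.

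The gene with the lowest fold change was *mRpL33* (FBgn0040907, chromosome X, 4321764 to 4322231, minus strand), which encodes a small large-subunit protein with a bacterial counterpart at the exit site for transfer RNA. It had 149, 119 and 145 normalized counts on the sugar diet, against 175, 203 and 209.7 on the control diet. Every sugar library was below every control library. The means were 138 ± 16.2 on the sugar diet and 196 ± 18.3 on the control diet (SD, n = 3 each), and the log2 fold change with its SE was -0.50 ± 0.22 (DESeq2 q = 0.126, edgeR q = 0.0847). The q missed the threshold in DESeq2 and passed it in edgeR, the 95% interval of the fold was 0.526 to 0.944, and no exon of another gene overlaps this one.

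The next genes at this end of the range were called by neither tool. *mRpL44* (FBgn0037330, chromosome 3R, 5469463 to 5470636), whose human counterpart has an RNase III fold, had 100.4, 113 and 123 normalized counts on the sugar diet, against 137, 160.3 and 134 on the control diet. The groups did not overlap, and the log2 fold change was -0.35 ± 0.23 (DESeq2 q = 0.515). *mRpS6* (FBgn0035534, chromosome 3L, 4364550 to 4365243), a small subunit protein with a bacterial counterpart, had 70.7, 78.7 and 65.9 normalized counts on the sugar diet, against 90.6, 96.8 and 83.7 on the control diet. These groups were also apart, at -0.33 ± 0.28 (DESeq2 q = 0.695). *mRpL11*, a protein at the base of the stalk where translation factors bind, and *mRpS28* followed at -0.30 ± 0.35 (DESeq2 q = 0.837) and -0.30 ± 0.28 (DESeq2 q = 0.749), both with overlapping groups.

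At the other end was *mRpS23* (FBgn0260407, chromosome 2L, 13834250 to 13835072), a small subunit protein of the mitochondrial lineage. It had 106, 130.3 and 143 normalized counts on the sugar diet, against 84.4, 95.3 and 98.4 on the control diet. Every sugar library was above every control library, and the log2 fold change was 0.45 ± 0.26 (DESeq2 q = 0.371, edgeR q = 0.217). *mRpS33* (FBgn0038426, chromosome 3R, 16436045 to 16436597) had 111, 122 and 105 normalized counts on the sugar diet, against 97.6, 77.1 and 100.4 on the control diet. Its groups were apart by a narrow gap, at 0.28 ± 0.26 (DESeq2 q = 0.738). *mRpS18C*, 1 of 3 genes for proteins of the S18 family, stood at 0.34 ± 0.41 (DESeq2 q = 0.843), *mRpL54* at 0.30 ± 0.32 (DESeq2 q = 0.801) and *mRpL36* at 0.30 ± 0.36 (DESeq2 q = 0.847), all with overlapping groups.

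Over the 70 genes, 5 had all sugar libraries below all control libraries (*mRpL33*, *mRpL44*, *mRpS6*, *mRpL49* and *mRpS9*) and 3 had them all above (*mRpS23*, *mRpL50* and *mRpS33*). The background among genes in the same range of counts was 4.38% lower and 18.5% higher. The part of testis and accessory gland RNA in the higher share was not tested. Of these 8 genes, *mRpS9* and *mRpL49* were practically unchanged within 1.5-fold although their groups were apart, at -0.21 ± 0.14 (equivalence q = 0.0145, DESeq2) and -0.21 ± 0.19 (equivalence q = 0.0629, DESeq2).

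**Figure D2:**
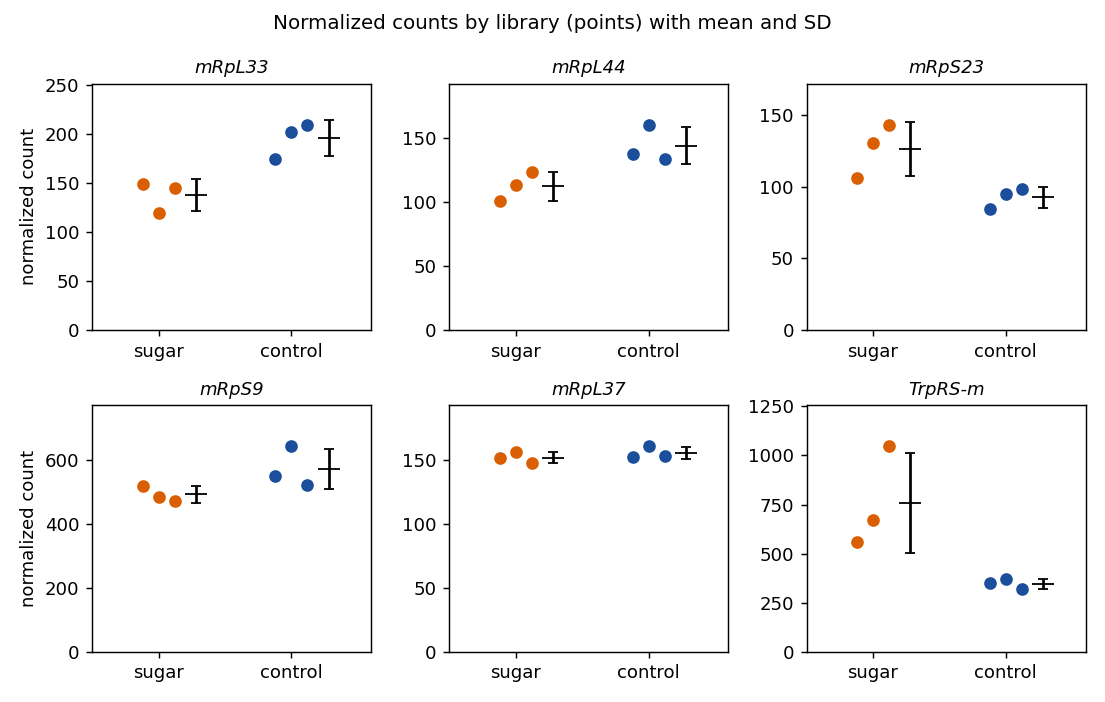
Normalized counts of 5 mitochondrial ribosomal protein genes and of TrpRS-m (vertical axes start at 0) in the 3 sugar diet libraries (orange, left) and the 3 control diet libraries (blue, right), each point 1 library in replicate order, with the mean and SD beside them. mRpL33, mRpL44 and mRpS9 lie lower and mRpS23 and TrpRS-m higher on the sugar diet without overlap, whereas mRpL37 overlaps.

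Other genes had nearly equal means on both diets. *mRpL37* (FBgn0261380, chromosome 3R, 10782563 to 10784092), a large subunit protein of the mitochondrial lineage, had 152, 156 and 147 normalized counts on the sugar diet, against 152, 160.3 and 153 on the control diet, and was singled out after its values were seen. The groups overlapped and lay within a narrow band, at -0.03 ± 0.20 (equivalence q = 0.0114, DESeq2). *mRpS29* (FBgn0034727, chromosome 2R, 22418937 to 22420376), whose human counterpart is the GTP-binding protein DAP3, had 256, 266 and 276 on the sugar diet and 286, 266 and 282 on the control diet, a log2 fold change of -0.07 ± 0.16 (equivalence q = 0.00291, DESeq2). The lowest equivalence q of the 70 genes, 0.00287 (DESeq2), was that of *mRpL28*, a large subunit protein with a bacterial counterpart, which had 336, 394 and 385 normalized counts on the sugar diet, against 355, 313 and 409 on the control diet.

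Proteins near the peptidyl transferase centre, the site where peptide bonds form, were represented by *mRpL2* at -0.18 ± 0.23, *mRpL3* at -0.03 ± 0.24 and *mRpL27* at -0.12 ± 0.25 on the log2 scale, and all 3 were practically unchanged. *mRpL16*, another protein next to this site, was at 0.21 ± 0.22 and was neither called nor practically unchanged (equivalence q = 0.105, DESeq2). In the stalk, which recruits the translational GTPases, *mRpL12* was at -0.08 ± 0.21 and *mRpL10* at 0.20 ± 0.21, both practically unchanged. *mRpL4*, whose bacterial counterpart lines the upper part of the peptide tunnel, was at -0.0049 ± 0.23 and practically unchanged. At the exit of the tunnel, *mRpL22*, *mRpL23* and *mRpL45*, the last a membrane anchor of the ribosome in human mitochondria, were at 0.01 ± 0.22, -0.17 ± 0.21 and -0.14 ± 0.18, and these 3 were practically unchanged as well, while *mRpL24* was not.

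Some members have small subunit symbols but lie in the large subunit of mammalian mitochondrial ribosomes. Of these, *mRpS30* was at 0.14 ± 0.17 and practically unchanged (equivalence q = 0.0153, DESeq2), and *mRpS18A* was at 0.27 ± 0.28 and was not. The small subunit proteins *mRpS7* (-0.12 ± 0.21), *mRpS25* (0.03 ± 0.20), *mRpS26* (0.22 ± 0.20), *mRpS31* (-0.03 ± 0.21) and *mRpS35* (0.01 ± 0.20) were practically unchanged, whereas *mRpS2*, *mRpS10*, *mRpS11*, *mRpS16* and *mRpS17* were neither called nor practically unchanged, with log2 fold changes of -0.16 to 0.21.

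A split by family name, made after the values were seen and given with no test, put 41 genes with counts in families named from bacterial ribosomes and 29 in families named from mitochondrial ones. The median log2 fold changes were -0.0049 and -0.03. Of the bacterial-name genes 18 of 41 were practically unchanged, and of the mitochondrial-name genes 21 of 29, with median mean normalized counts of 116 and 149. The 11 genes on chromosome X had a median of 0.02 and the 59 autosomal genes with counts a median of -0.04.

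Levels were compared between genes as normalized counts per kilobase of exon. They spanned 10.4-fold, and the order of the genes was much the same on both diets (Spearman's rho 0.948 and Pearson's r of log2 values 0.954 across 70 genes, a description across genes that share libraries and lengths). The highest level was that of *mRpL33*, at 395 per kilobase on the sugar diet and 561 on the control diet. It was followed by *mRpS9* (sugar 379.8, control 441), *mRpL55* (sugar 319.8, control 338), *mRpL28* (sugar 317, control 307) and *mRpS22* (sugar 291, control 318). *mRpS9* belongs to the head of the small subunit, with a tail that reaches the transfer RNA at the peptidyl site in bacteria, and *mRpL55* and *mRpS22* belong to the mitochondrial lineage.

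The lowest level was that of *mRpS14* (FBgn0044030, chromosome X, 19479382 to 19480238), a small subunit protein with a bacterial counterpart, at 47.7 per kilobase on the sugar diet and 44.4 on the control diet. It is 1 of 3 genes that share exon bases with another gene on their own strand, 30 of its 797 with *CG32533*. This layout counts no read there for either gene, so a small part of its level is uncertain. *mRpL21* (sugar 65.5, control 71.0), *mRpL11* (sugar 70.0, control 85.8), *mRpL19* (sugar 86.4, control 76.2) and *mRpL32* (sugar 89.8, control 74.7), the last a protein processed by a mitochondrial protease before assembly in yeast and mouse, came next. The median over all samples was 150 per kilobase for large subunit genes and 174 for small subunit genes, against 9843 for cytosolic ribosomal protein genes.

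**Figure D3:**
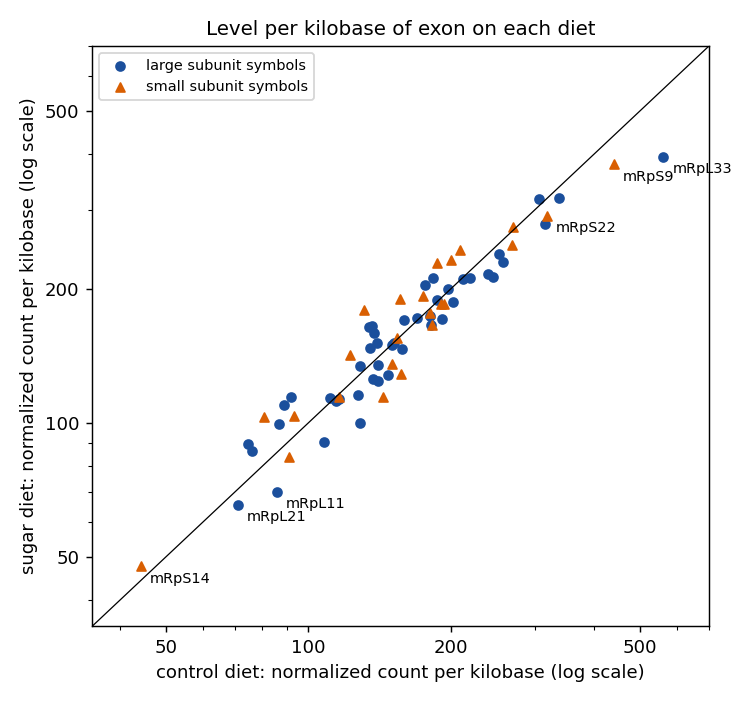
Mean normalized count per kilobase of exon on the sugar diet (vertical, log scale) against the control diet (horizontal, log scale) for 46 large subunit genes (blue circles) and 24 small subunit genes (orange triangles), with the line of equality. The genes lie along the line, from mRpS14 at 47.7 on the sugar diet and 44.4 on the control diet to mRpL33, which lies below it at 395 on the sugar diet and 561 on the control diet.

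Within the diets, the widest spreads were seen for genes with few counts and for *mRpL24*. *mRpL24*, a protein near the tunnel exit, had 158, 111 and 165 normalized counts on the sugar diet, against 129, 74.1 and 155 on the control diet, a ratio of highest to lowest of 1.488 on the sugar diet and 2.09 on the control diet. Replicate 2 was the low library on both diets. *mRpL13* shares 236 of its 671 exon bases with *CG10602* on its own strand, so its level per kilobase is uncertain. It had 49.3, 64.7 and 86.2 on the sugar diet, against 68.7, 49.9 and 56.1 on the control diet. Its ratio was 1.75 on the sugar diet, the widest of the 70 genes there, with replicate 3 highest. *mRpS18C* (51.1, 41.2 and 70.7 on the sugar diet, against 39.8, 31.8 and 56.1 on the control diet), *mRpL32* on the sugar diet (1.62) and *mRpS14* on the control diet (2.02) completed the set.

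Summed over the gene set, normalized counts differed little between libraries. They came to 10040.1, 10039.0 and 10543 on the sugar diet, against 10633, 10052 and 10423 on the control diet, and these ranges overlap. The set held 0.0564%, 0.0617% and 0.0652% of all sense counts on the sugar diet and 0.0565%, 0.0527% and 0.0603% on the control diet, a share that varied more than the normalized sum. The ratio of summed large to summed small subunit counts was 1.598 to 1.632 on the sugar diet and 1.62 to 1.69 on the control diet.

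Strand affected some members. Exons of 41 of the 71 genes overlap an exon on the opposite strand, and for these the unstranded count had a median of 93.2% of the sense count, against 100.6% for members without such overlap. The lowest shares were 36.6% for *mRpS21* (FBgn0044511, chromosome 3R, 13381276 to 13381809), which shares 228 of 475 exon bases with *CG8870*, and 41.9% for *mRpS24* (FBgn0039159, chromosome 3R, 24162829 to 24163545), which shares 332 of 600 with *TBC1d7*. Reads in such stretches are set aside when strand is ignored. With unstranded counts 0 of 70 genes were called as well, with 1 at an unadjusted p under 0.05 (DESeq2).

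**Figure D4:**
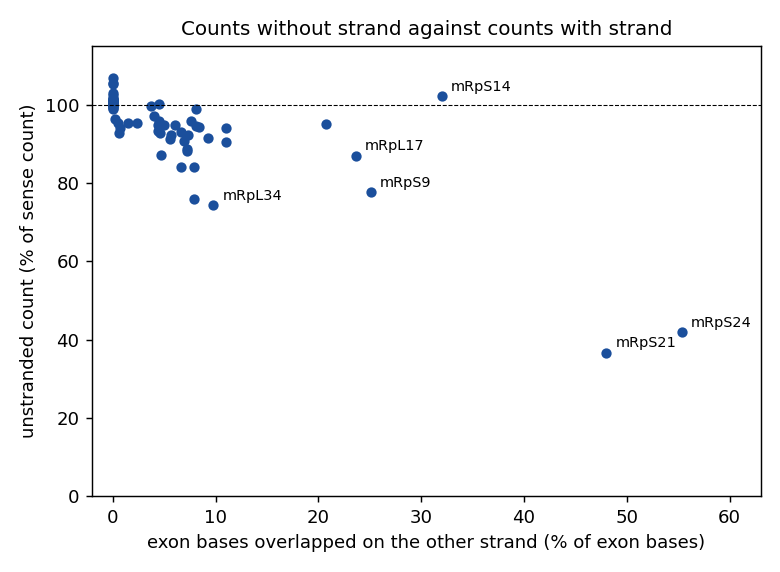
Unstranded count as a percent of the sense count (vertical), summed over the 6 libraries, against the percent of exon bases overlapped on the other strand (horizontal), 1 point for each of 70 genes. Most points lie near 100%, and mRpS21 (36.6%) and mRpS24 (41.9%) lie farthest below.

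*mRpL53* (FBgn0050481, chromosome 2R, 13954195 to 13955664) had 0 counts in all 6 libraries. All 829 of its exon bases lie within exons of *CG33155* on the same strand, so reads from it could not be assigned to 1 gene, and the value of 0 does not measure its level.

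The rest of the mitochondrial translation machinery was examined through a list of 42 genes, of which 38 were in the tables and 33 had counts. The remaining 5 (*waw*, *CG30100*, *GatC*, *mtTFB1* and *SLIRP1*) were at 0 in every library, and each of them, like *mRpL53*, is wholly covered by another gene on its strand. Of the 33 genes, 1 was called, *TrpRS-m* (FBgn0036763, chromosome 3L, 17849727 to 17852453), the mitochondrial enzyme that loads tryptophan onto its transfer RNA. The median log2 fold change of the 33 genes was 0.10, 27 were above 0, and 19 were practically unchanged. Among the 5360 genes in the range of counts of the members, the median was 0.03 and 2994 were above 0. Of these 5360 genes 13.8% were called and 50.1% were practically unchanged, and 14.5% of all genes tested were called. The mean counts of the 33 genes, 28.8 to 1164, reached beyond that range. The difference from the background was not tested.

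*TrpRS-m* had 561, 669 and 1046 normalized counts on the sugar diet, against 350.0, 369 and 318 on the control diet. Every sugar library was above every control library, and sugar replicate 3 was the highest. It rose with a log2 fold change of 1.14 ± 0.22 (DESeq2 q = 5.88e-06, edgeR q = 0.00925), a fold of 2.20 with a 95% interval of 1.62 to 2.97. Sugar replicate 3 also had the highest sums of testis markers (4972, against 1656 and 2713 in the other sugar libraries and 22.7 to 56.1 in control libraries), accessory gland markers (2400.0, against 922 and 787 in the other sugar libraries and 3.02 to 28.9 in control libraries) and midgut markers (3919, against 1409 and 1661 in the other sugar libraries and 101 to 587 in control libraries). The midgut sum in that library was carried by *Jon65Aiv* (2535) and *betaTry* (939), the 2 of 5 midgut markers called. *Jon99Ciii* (148) and *Jon25Bi* (7.75) were also highest in that library but were not called. *Amy-p* had 290 there, against 668 in sugar replicate 1 and 444 in control replicate 1. The part of these tissues in the rise of *TrpRS-m* was not tested. Without sugar replicate 3 the log2 fold change was 0.84 (DESeq2 q = 1.21e-05).

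Among the 9 translation factors with counts, 0 were called by DESeq2 or edgeR, and 1 by DESeq2 and 2 by edgeR had an unadjusted p under 0.05. *mEFTs*, the exchange factor that recharges mitochondrial EF-Tu, was at 0.32 ± 0.15 (DESeq2 q = 0.184), and *mEFTu1*, which encodes an EF-Tu, was at 0.05 ± 0.13 and practically unchanged. Among the 16 synthetase and amidotransferase genes, *CysRS-m* had 238, 254 and 401 normalized counts on the sugar diet, against 199.98, 213 and 228 on the control diet, at 0.48 ± 0.24 (DESeq2 q = 0.241). Sugar replicate 3 was again highest. *mEFTs* and *CysRS-m* passed the threshold when sugar replicate 1 was left out, which gave 3 called of 33, and also with total-count scaling. The 8 genes of mitochondrial transcription and RNA handling included 0 called by either tool, with 0 (DESeq2) and 1 (edgeR) at an unadjusted p under 0.05, among them *PolrMT*, the mitochondrial RNA polymerase, at -0.07 ± 0.11 and practically unchanged (equivalence q = 1.48e-05, DESeq2), and *TFAM*, which packages mitochondrial DNA, at 0.36 ± 0.19 (DESeq2 q = 0.309).

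**Figure D5:**
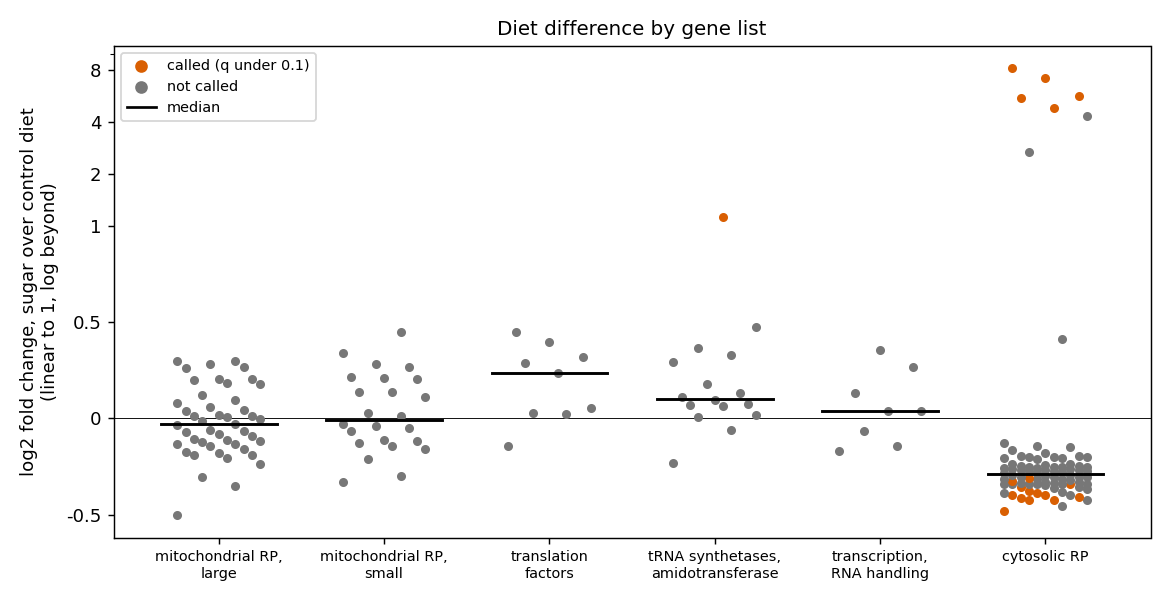
Log2 fold change (sugar over control diet; linear to 1, log beyond) of every gene with counts in 6 lists, with medians as black lines and genes with q under 0.1 in orange. No mitochondrial ribosomal protein gene is orange, TrpRS-m is the single called gene of the 3 other mitochondrial lists at 1.14, and 18 of 86 cytosolic ribosomal protein genes are called.

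A pair of mitochondrial ribosomal proteins known by other symbols fell outside the rule. *tko*, the S12 protein of the decoding centre whose mutants are seizure-prone, was at 0.03 ± 0.22, and *bonsai*, the S15 protein, was at -0.01 ± 0.21, both practically unchanged (equivalence q = 0.0191 and 0.00955, DESeq2). The ribosomal RNAs that these proteins bind varied more between libraries. *mt:lrRNA* had 646440, 500478 and 379650 normalized counts on the sugar diet, against 852683, 756899 and 317447 on the control diet. Control replicate 3 was the lowest of all 6, the groups overlapped, and the log2 fold change was -0.34 ± 0.43 (DESeq2 q = 0.859). Without control replicate 3 it was -0.67 (DESeq2 q = 0.0120). *mt:srRNA* was at -0.23 ± 0.43 (DESeq2 q = 0.928). The libraries had been depleted of ribosomal RNA, and the part of that step in these levels was not tested.

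The cytosolic ribosomal protein genes were set beside the mitochondrial ones for scale. Of 86 with counts, 18 were called by DESeq2, 5 higher and 13 lower on the sugar diet. Among all 14254 genes tested, 2067 (14.5%) were called, 1990 higher and 77 lower. The median log2 fold change of the cytosolic genes was -0.29, against -0.03 for the 70 mitochondrial genes. The difference between the sets was not tested. The 5 called higher, *RpL10Aa*, *RpL22-like*, *RpL37-2*, *RpS19b* and *RpS28a*, are duplicate copies of other ribosomal protein genes. Their mean normalized counts were 9.17 to 57.7 on the sugar diet and 0 to 0.832 on the control diet, and the summed testis markers (1656 to 4972 on the sugar diet, 22.7 to 56.1 on the control diet) and accessory gland markers (787 to 2400.0 on the sugar diet, 3.02 to 28.9 on the control diet) were also higher on the sugar diet. The part of these tissues in the calls was not tested. The 13 lower calls numbered 12 to 14 with TMM factors, the count filter or unstranded counts. They numbered 0 by edgeR, with total-count scaling and without sugar replicate 2 or sugar replicate 3, 1 without control replicate 1 or 2, 41 without sugar replicate 1 and 73 without control replicate 3.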

How the data were processed

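Libraries were ribosomal-RNA-depleted, stranded RNA-seq of 300 fly heads per replicate, 3 per diet. The authors aligned reads with STAR to dm6 and deposited raw counts per gene (unstranded, sense and opposite-strand); their notes also name HTSeq, SAMtools 1.4 and DESeq2 1.18.0. The STAR version and annotation release are not given in the sources used here. Sense counts were used as deposited.

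All genes with at least 1 count were fitted with DESeq2 1.42.0 in R 4.3.3 (median-of-ratios factors, Wald test, no block, q under 0.1), with edgeR 4.0.16 as an alternative, and both scripts were tested on simulated data. Practical equivalence used a 1.5-fold margin. Normalized counts are counts divided by the DESeq2 factor. Exon lengths, overlaps and coordinates came from Ensembl release 115 (dm6 coordinates). Symbols matched 17215 of 17489 identifiers.

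The members and gene lists were chosen with earlier results of these data known. Named genes were any called member, the 5 largest and 5 smallest fold changes (mean normalized count of at least 10), the 5 highest and 5 lowest levels per kilobase, the 3 widest spreads per diet, called genes of the pathway lists, *tko*, *bonsai*, *mRpS29* and both mitochondrial ribosomal RNAs. Other members are named by their role, or were chosen after their values were seen (*mRpL37*, *mRpL49*, *mRpL50*, *mRpS21*, *mRpS24*, *mRpS7*, *mRpS25*, *mRpS26*, *mRpS31*, *mRpS35*, *mRpS2*, *mRpS10*, *mRpS11*, *mRpS16*, *mRpS17*, *CysRS-m*, *mEFTs*). In a check for duplicated libraries, those of the same diet differed beyond sampling noise (chi-square per degree of freedom 19.4 to 56.4). None was thus a copy of another on its diet, and all 6 were kept. Alternatives were TMM and total-count factors, a filter of 10 counts in 3 libraries, unstranded counts, a replicate block, a q under 0.05, a 2-fold margin and leaving out each library. No molecular identifiers are described, so standard errors from counting alone cover counting error only.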

Additional observations from a re-analysis of the deposited data

How the results depend on the processing

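The number of mitochondrial ribosomal protein genes called was 0 under every alternative run except edgeR, which called 1, *mRpL33*, as lower on the sugar diet. Practically unchanged genes numbered 29 to 48 when each library was left out, 24 with the replicate block in DESeq2 and 70 with a 2-fold margin. They numbered 50 with TMM factors, 50 with the count filter, 46 with unstranded counts and 39 with total-count factors. The background share of practically unchanged genes was taken with the main settings only. Total-count factors raised the median log2 fold change of all genes to 0.15, against 0.01 with median-of-ratios factors, and gave medians of 0.11 for the members, 0.11 for the large subunit and 0.13 for the small subunit. They also gave 3 called genes of the other mitochondrial translation list, which had 1 to 3 when each library was left out. The small subunit median lay on either side of 0 (-0.05 to 0.05) when libraries were left out. None of the genes whose direction changed was called: with total-count factors *mRpL55* was at 0.040, *mRpS22* at 0.013, *mRpL21* at 0.015, *bonsai* at 0.12 and *mRpS29* at 0.071, and with edgeR *bonsai* was at 0.0028 without the block and 0.0028 with it. Leaving out each library gave the ranges -0.045 to 0.13 for *mRpL28*, -0.26 to 0.023 for *mRpS22*, -0.16 to 0.28 for *mRpS14*, -0.041 to 0.36 for *mRpL13*, -0.12 to 0.19 for *tko* and -0.059 to 0.072 for *bonsai*. The other comparisons of named genes, 320 in all, kept their direction and side of the threshold, apart from the calls of *mRpL33* by edgeR and *mt:lrRNA* without control replicate 3.

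Over all genes with a mean count of at least 10, replicate numbers did not pair the libraries. Deviations of same-numbered libraries from the mean of their diet correlated at 0.03, -0.04 and -0.10. Across the members, same-numbered libraries had Spearman's rho of 0.926, 0.868 and 0.917, the highest with a sugar library for each control library. Sugar replicate 2 was closer to control replicate 3 (0.903). A pairing among the members was not tested. A fit with the replicate block called 0 members in DESeq2 and 0 in edgeR, and 1842 and 1646 genes in all, against 2067 and 1600 without it. With the block, *mRpL33* had q = 0.391 in DESeq2 and 0.119 in edgeR, and lower calls of cytosolic ribosomal protein genes numbered 17 in DESeq2 and 6 in edgeR. With 3 libraries per diet, 31 of 70 genes could be placed neither among the called nor among the practically unchanged.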
